A study of Homo sapiens with 2 samples.

Results

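The miRNAs described here are both arms of the hairpins miR-483 and miR-675, namely hsa-miR-483-5p, hsa-miR-483-3p, hsa-miR-675-5p and hsa-miR-675-3p. They were chosen by name, as the miRNAs carried by the neighbouring imprinted genes IGF2 and H19, and are 4 of the 2549 human miRNAs on the array. They were read by 10 probes with 80 spots on each array. Cells of HepG2, a human hepatocellular carcinoma line, were given an adenoviral vector for 48 h. The control array holds cells given the control vector Ad-NC, and the other array holds cells given Ad-uc.372, the vector for the ultraconserved non-coding RNA uc.372. Both groups share the cell line, the vector type and the time, and each has 1 array, so no difference below has a replicate check and no test across samples was made. The title of the deposited data and the study's text describe overexpression of uc.372 in these cells, while the label Ad-uc.372 carries no suffix and the axes of a published plot of these arrays carry that of the inhibitor vectors. Directions are therefore given as the array labelled Ad-uc.372 against the array labelled Ad-NC. The array has no probe for uc.372, so the effect of the vector itself could not be checked.

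IGF2 encodes insulin-like growth factor 2, a growth factor that fetal liver makes in large amounts, there mainly from the paternal allele. H19, its neighbour, is a long non-coding RNA transcribed from the maternal allele. H19 is largely silenced in liver after birth, and both genes are raised in some hepatocellular carcinomas. miR-483 lies in an intron of IGF2, and miR-675 lies in the first exon of H19, from which Drosha and Dicer release it. After release, either arm of a hairpin can be loaded into an Argonaute protein, where the seed near its 5′ end selects target mRNAs. miR-483-3p is known to repress the pro-apoptotic gene BBC3, and miR-675 is known to repress the growth factor receptor gene IGF1R. In RefSeq's annotation of GRCh38.p14, MIR483 lies within IGF2 and the read-through gene INS-IGF2, and MIR675 lies within H19 and within the span of MRPL23.

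RefSeq's miRNA table gave mature sequences for 2248 of the 2549 miRNAs, among them both arms of miR-675. The hairpin is shown first, at chr11:1996759-1996831 on the minus strand of GRCh38.p14, with both mature arms in capitals, to show that the arms come from opposite sides of the loop. The mature arms follow with the seed, bases 2 to 8, in capitals, and below them stands the other array miRNA that has the seed of miR-675-5p.
MIR675 hairpin: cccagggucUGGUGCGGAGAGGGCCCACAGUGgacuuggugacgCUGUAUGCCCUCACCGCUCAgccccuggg
hsa-miR-675-5p: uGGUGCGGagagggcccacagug
hsa-miR-675-3p: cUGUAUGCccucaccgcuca
hsa-miR-4466: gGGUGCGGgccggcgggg
The 5p arm has 23 bases and 69.6% G or C, and the 3p arm has 20 bases and 60.0% G or C. No other array miRNA with a sequence in the table shared the seed of miR-675-3p. miR-4466 has 18 bases, 94.4% of them G or C, and equals miR-675-5p at 9 of the 18 positions counted from the 5′ end.

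Of these 4 miRNAs, only miR-483-5p was measured on both arrays. It was 1.33-fold lower with Ad-uc.372, a log2 difference of -0.41 with a spot SD of 0.25, which is under the 1.5-fold threshold of the study and turned to 0.073 under 1 of 15 other ways of processing, described at the end. miR-483-3p, miR-675-5p and miR-675-3p had no probe well above background on either array, so no fold is given for them. Measured here means that at least 50% of a probe's spots passed the scanner software's limit for well above background, and the dimmest passing spot of each array stood at 21.1 (Ad-NC) and 17.3 (Ad-uc.372). Of all 2549 miRNAs, 229 (8.98%) were measured on both arrays. Of these 229, 9 (3.93%) were at least 1.5-fold apart, against 0 of 1 for the members. The 9 divide into 3 higher and 6 lower with Ad-uc.372, and this split depended on the processing. With the same 229 miRNAs it was 6 higher and 4 lower without scaling, and 34 higher and 3 lower when all probes entered the 75th percentile used for scaling. Over the 279 miRNAs that the software detected on both arrays, it was 22 higher and 8 lower with its total signal scaled to the 75th percentile, 27 higher and 8 lower with that signal unscaled, and 8 higher and 24 lower with the deposited log2 values.

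Both arrays lay on the same slide and were read in the same scan. Each held 50980 spots that were not controls, no spot was saturated, and 1273 spots with Ad-NC and 1657 with Ad-uc.372 were left out as outliers. Of 5 miRNAs listed for the hepatocyte lineage, 4 were measured, the exception being miR-122-5p, with a highest probe mean of 5.09 with Ad-NC and 5.08 with Ad-uc.372. None of the 14 miRNAs listed for blood, mesenchymal, muscle, neural or endothelial cells was well above background on either array.

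**Figure D1:**
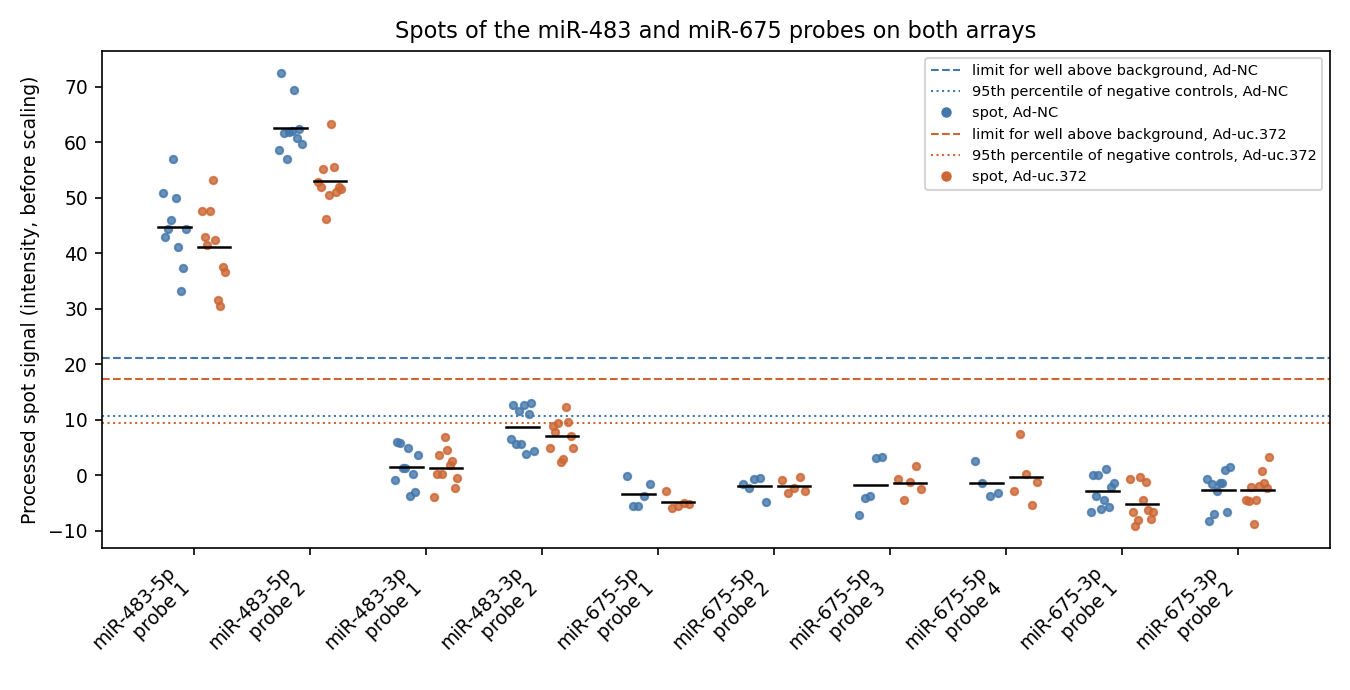
Processed signal of each spot (vertical axis, intensity before scaling) for the 10 probes of miR-483 and miR-675, with Ad-NC in blue and Ad-uc.372 in orange; black bars are means over spots, dashed lines the lowest spot well above background and dotted lines the 95th percentile of negative control spots on each array. The spots of both miR-483-5p probes lie above the dashed lines, and those of the other 8 probes lie below them.

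miR-483-5p had 2 probes of 10 spots each, and all 20 spots were well above background on both arrays. On probe 1 (A_25_P00012459) the processed signal with Ad-NC ran from 33.2 through a median of 44.4 to 57.0. On the same probe it ran from 30.5 through 41.9 to 53.1 with Ad-uc.372. The spots of probe 1 overlapped: before scaling, 8 of the 10 with Ad-uc.372 reached the lowest Ad-NC spot, and after scaling 6 did. On probe 2 (A_25_P00014861) the signal ran from 57.0 through 61.7 to 72.4 with Ad-NC, and from 46.2 through 51.9 to 63.2 with Ad-uc.372. Before scaling, 1 spot of probe 2 with Ad-uc.372 reached the range of Ad-NC, and after scaling none did. Such a separation downwards was not particular to this probe, since it held for 71 of 303 probes (23.4%) with every spot well above background and at least 8 grid positions to compare.

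Scaling subtracts from each array its 75th percentile over probes well above background on both arrays, which stood at 304.6 (Ad-NC) and 356.5 (Ad-uc.372) in signal, and so lowers every log2 difference by 0.23 (a shift of -0.23). The mean signal of probe 1 was 44.7 ± 6.82 (SD over 10 spots) with Ad-NC and 41.1 ± 7.24 with Ad-uc.372. Its log2 difference was -0.13 before and -0.35 after scaling, with a combined spot SD of 0.34. The mean signal of probe 2 was 62.6 ± 4.76 with Ad-NC and 53.0 ± 4.44 with Ad-uc.372. Its log2 difference was -0.24 before and -0.47 after scaling, with a combined spot SD of 0.16. Both probes thus gave a lower signal with Ad-uc.372, and for probe 1 the difference without scaling was smaller than the spread between its spots. A lower signal in RNA from a whole culture cannot tell fewer cells that carry the miRNA from less of it in each cell.

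The arrays have the same layout, so each spot has a counterpart at the same grid position of the other array. Compared position by position before scaling, probe 1 was lower with Ad-uc.372 at 7 of 10 positions, with log2 differences from -0.38 to 0.051 and an SD of 0.14. Probe 2 was lower at 9 of 10 positions, from -0.48 to 0.025, with an SD of 0.13. After scaling, every position of both probes was lower, as it was for 119 of the 303 probes (39.3%). For probe 1, the log2 signals at shared positions had a correlation of 0.85 over 10 positions, and for probe 2 of 0.30. Over the 303 probes the median correlation was 0.35, and 26 probes had a higher one than probe 1. The points of such a correlation share the probe and the place on the grid, and it is given as a description.

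**Figure D2:**
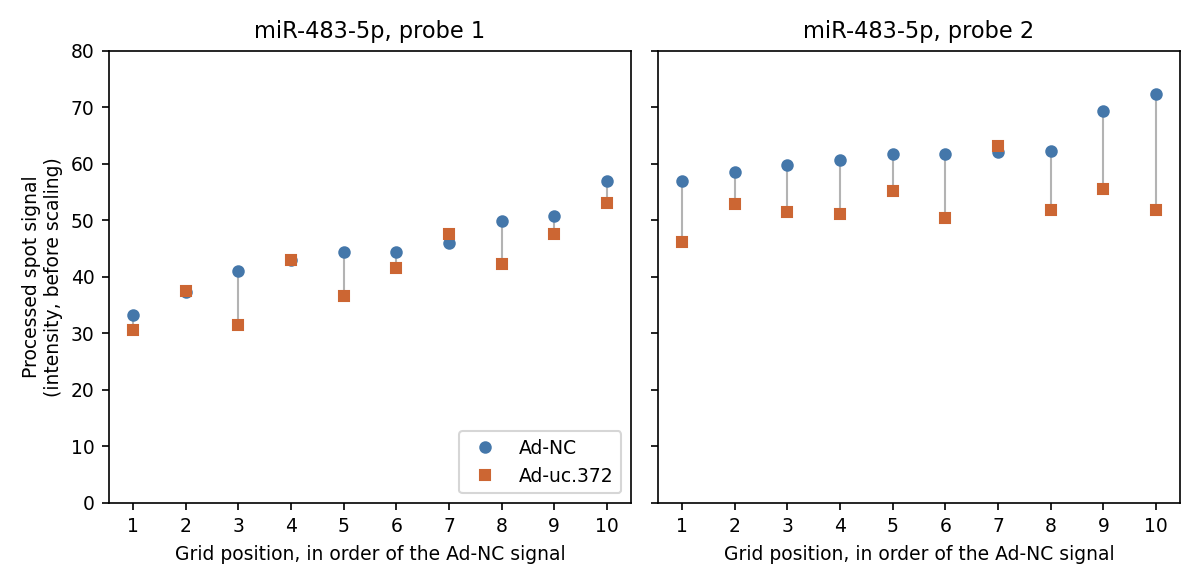
Signal of the 10 spots of each miR-483-5p probe (vertical axis, processed intensity before scaling) at the same grid position of both arrays, ordered by the Ad-NC signal; circles are Ad-NC, squares Ad-uc.372, and a line joins a pair. Ad-uc.372 is lower at 7 positions of probe 1 and at 9 of probe 2, and on probe 1 positions bright on one array tend to be bright on the other.

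The software's total signal for miR-483-5p, which sums over its probes, was 15.2 with Ad-NC and 13.3 with Ad-uc.372, with the software's own errors of 1.38 and 1.18. The log2 values that the authors deposited for it were 2.54 and 2.02, a difference of -0.52, also under 1.5-fold. These values equal the log2 of the total signal minus a constant for each array, 1.39 and 1.71, within 0.001 for 2567 and 2563 of 2570 rows. Only the constants separate that difference from the one in the unscaled totals, -0.19.

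The other arm of the same hairpin, miR-483-3p, stayed under the limit on both of its probes. The 10 spots of its probe 1 ran from -3.69 through a median of 1.24 to 6.05 with Ad-NC, and from -3.92 through 1.05 to 6.89 with Ad-uc.372. Those of its probe 2 ran from 3.87 through 8.82 to 13.0 with Ad-NC, and from 2.37 through 7.43 to 12.3 with Ad-uc.372. The spots of each probe overlapped between the arrays. The negative control spots give the background for these values, with a mean of 3.94 ± 3.77 (SD, 989 spots) with Ad-NC and 3.48 ± 3.39 (982 spots) with Ad-uc.372. Of the 10 spots of probe 2, 5 exceeded the 95th percentile of the negative controls with Ad-NC, which was 10.7, and 3 exceeded it with Ad-uc.372, which was 9.40. None reached the brightest negative control, at 15.7 and 13.9. The software also flags spots as positive and significant, which held for 9 and 8 spots of probe 2. The flag held for 45.4% and 49.6% of the negative controls as well. It held for 27.9% and 28.0% of the spots that were neither controls nor outliers. Those spots had a median signal of 0.90 with Ad-NC and 0.563 with Ad-uc.372, below the means of the negative controls. A level of miR-483-3p was therefore not detectable over background by the limit used here, and spots above the 95th percentile of the negative controls came from probe 2, with 0 from probe 1.

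Neither arm of miR-675 rose above background. The 4 probes of miR-675-5p have 5 spots each, of which 1 with Ad-NC was left out as an outlier. The remaining spots ran from -7.12 through a median of -2.29 to 3.32 with Ad-NC, and from -6.01 through -2.62 to 7.43 with Ad-uc.372, where 16 of 19 and 17 of 20 spots lay below 0 after background subtraction. The mean of the 4 probes on either array lay between -4.92 and -0.334. For miR-675-3p, the 20 spots of 2 probes ran from -8.31 through -1.90 to 1.41 with Ad-NC, and from -9.11 through -4.47 to 3.23 with Ad-uc.372. Of its spots, 16 with Ad-NC and 18 with Ad-uc.372 lay below 0. No spot of either arm exceeded the 95th percentile of the negative controls on either array. In the deposited values the 3 undetected miRNAs stand at -4.71 with Ad-NC and -5.04 with Ad-uc.372. Every miRNA that the software did not detect carries these fixed values, 2253 miRNAs with Ad-NC and 2230 with Ad-uc.372, so the gap between them is no difference in level.

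A hairpin with a single arm measured, as miR-483 was, was common among those with any arm measured (88.8% of 125 names). Of 810 names with both arms on the array, 69 had the 5p arm alone measured on both arrays, 42 the 3p arm alone and 14 both arms. The remaining 685 (84.6%) had neither arm measured, as miR-675 did. Signals of different probes are not set against each other, so these counts do not tell which arm was more abundant.

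The 229 measured miRNAs centred on a median log2 difference of -0.17, with quartiles of -0.34 and 0.013 and an SD of 0.29. miR-483-5p lay 0.24 under that median (a gap of -0.24), and 34 miRNAs (14.8%) had a lower difference. The gap is no larger than the spot SD of miR-483-5p. That SD is a spread between single spots, and measures neither the error of a mean nor the spread between cultures. The 3 miRNAs nearest to it in difference over the 2 arrays were miR-128-3p, miR-361-3p and miR-24-3p, each at -0.41, at distances of 0.00048, 0.0037 and 0.0044 on the log2 scale. With 1 value per array, many miRNAs lie this close, and nearness here is a description alone.

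**Figure D3:**
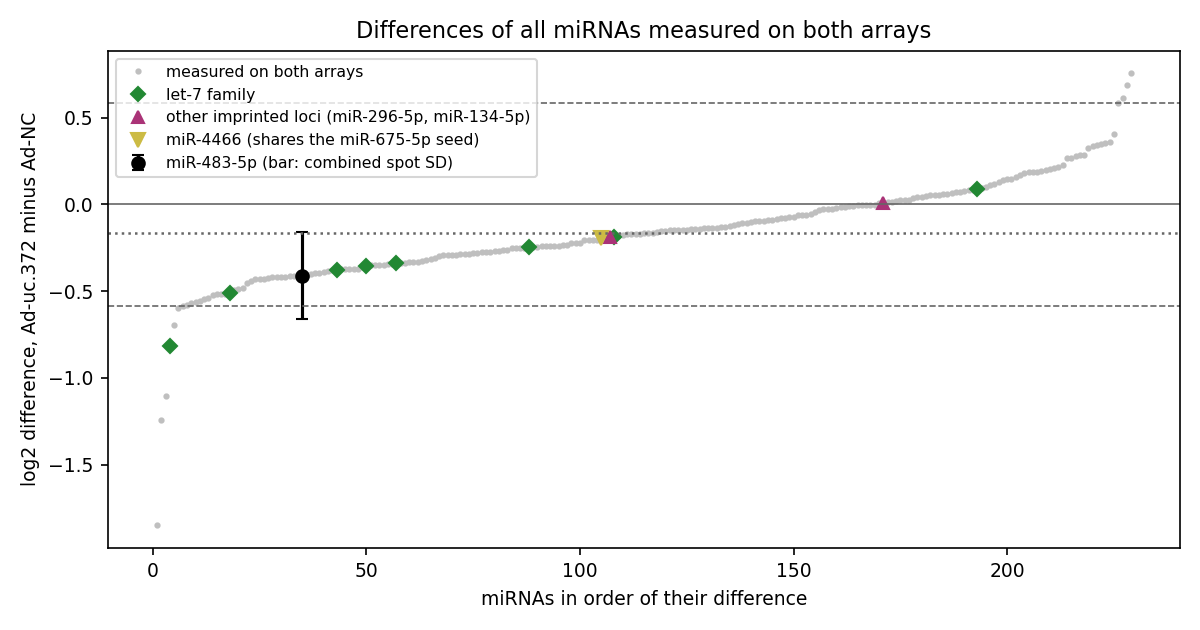
Log2 difference, Ad-uc.372 minus Ad-NC after scaling (vertical axis), of the 229 miRNAs measured on both arrays in order (horizontal axis), with the dotted line at their median of -0.17 and dashed lines at 1.5-fold. miR-483-5p at -0.41, with its combined spot SD as a bar, lies in the lower part of the order and inside the dashed lines, and of the let-7 family let-7b-5p alone lies past them.

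miR-4466, which has the seed of miR-675-5p, was measured where miR-675-5p was not. Its 2 probes had mean signals of 83.3 ± 4.44 (SD over spots) and 142 ± 7.89 with Ad-NC, and of 87.9 ± 7.92 and 141 ± 8.10 with Ad-uc.372. Its log2 difference was -0.19 after scaling, with a spot SD of 0.13, and it turned to 0.034 without scaling. Before scaling, its signals on each probe differed by less than the larger of the SDs.

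The let-7 family was listed because H19 RNA is known to bind let-7 miRNAs, which repress growth genes. RefSeq's sequences of all 9 listed members have the same seed, shown here in capitals for let-7a-5p, the best known member, and let-7b-5p, the member with the largest difference.
hsa-let-7a-5p: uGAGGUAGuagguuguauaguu
hsa-let-7b-5p: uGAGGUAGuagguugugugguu
Of the 9, 8 were measured, 7 of them with lower and 1 with higher values with Ad-uc.372, and 1 was past 1.5-fold. Their median log2 difference was -0.35, and it turned to 0.14 when all probes entered the 75th percentile. Over all 229 measured miRNAs the median was -0.17, and 169 were lower. let-7b-5p was at -0.82 with a spot SD of 0.20, on 1 of its 2 probes, with a mean signal of 53.8 with Ad-NC and 35.5 with Ad-uc.372. It was no longer past 1.5-fold with normexp background correction (-0.44) or when all probes entered the 75th percentile (-0.33), and at -0.59 without scaling it was just past it. let-7e-5p was at -0.51, let-7a-5p at -0.38, miR-98-5p at -0.35, let-7d-5p at -0.34, let-7i-5p at -0.25 and let-7g-5p at -0.19, each within 1.5-fold, but let-7e-5p was past it, at -0.64, with the deposited values and with the brightest probe alone. let-7f-5p was at 0.09 as the mean of probes at -0.43 and 0.61, so its sign rests on 1 probe. The same holds for let-7g-5p, with probes at -0.44 and 0.069, and for let-7i-5p, with probes at -0.51 and 0.015. Without scaling let-7g-5p turned to 0.042, so the count of lower members depends on the scaling. let-7c-5p was not well above background, with a highest probe mean of 11.3 with Ad-NC and 9.94 with Ad-uc.372. miR-98-5p was measured on 1 of its 2 probes, with a mean signal of 21.2 with Ad-NC and 21.1 with Ad-uc.372. These means lie near the limits of 21.1 and 17.3 to which dimmer spots were raised. In the unscaled total signal the difference of miR-98-5p was -0.011.

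Among 21 miRNAs listed for other imprinted loci, which include neighbours of an imprinted cluster, only 2 were measured. The others listed were under the limit on both arrays, as 3 of the 4 miRNAs of IGF2 and H19 were. The list does not hold every miRNA of these loci, so the counts cover the listed ones alone. miR-296-5p, from the locus of GNAS and its antisense RNA, had a log2 difference of -0.19 with a spot SD of 0.27. miR-134-5p, from the maternally expressed cluster at DLK1 and MEG3, had one of 0.0068 with a spot SD of 0.19. After scaling, neither difference exceeded the spread between spots.

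The sign of the miR-483-5p difference depended on the scaling. It was below 0 under 14 of 15 other ways of processing and 0.073 when the 75th percentile was taken over all probes, which adds 0.48 to every difference and moves the median of all miRNAs to 0.32. Against the median of all measured miRNAs under the same processing, miR-483-5p was lower each time, by a gap from -0.27 to -0.10. A scaling that adds the same constant to every difference cannot change this gap. It stayed at -0.24 without scaling, with all probes in the 75th percentile and with the median of measured probes. Those settings are thus no check on it. The filters on dim probes left miR-483-5p at -0.41 and changed only the miRNAs behind the median. miR-483-5p was past 1.5-fold in 0 of the 15.

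**Figure D4:**
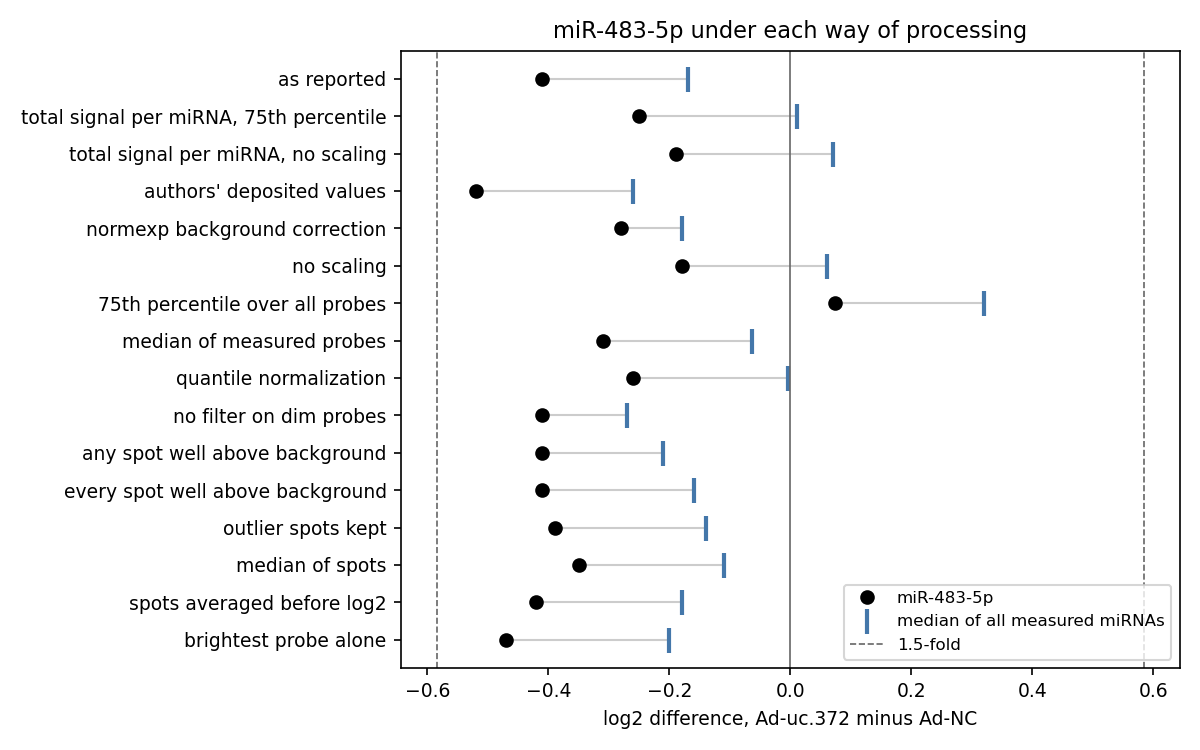
Log2 difference of miR-483-5p (circles) and median over all measured miRNAs (blue marks), Ad-uc.372 minus Ad-NC (horizontal axis), under the processing reported and 15 alternatives (vertical axis), with dashed lines at 1.5-fold. Both move together with the scaling, so a change of the scaling constant alone cannot alter their gap. The circle lies left of the median and inside the dashed lines under each setting.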

How the data were processed

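RNA of HepG2 cells was labelled with Cy3 and hybridised to Agilent human miRNA arrays, 1 per condition. The authors deposited spot intensities made with Agilent Feature Extraction (version 11.5.1.1 per the file headers, 10.10 per the labels), background-subtracted and not normalized between arrays, on a grid annotated to hg19, together with flags, and a table of log2 values described as normalized with GeneSpring GX, without the kind of normalization. Flags (a unit of other) mark spots well above background and outliers.

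Control and outlier spots were left out, and signals under the array's dimmest spot well above background were raised to it. Each probe's spots were averaged as log2 values, the 75th percentile over probes measured on both arrays was subtracted, and measured probes of a miRNA were averaged into its difference. The spot SD is technical, combined over both arrays as the root of summed variances and averaged over probes. The number of arrays limits the precision. The named miRNAs are the 4 members, those sharing a seed, the listed let-7 and imprinted miRNAs, and the 3 nearest in difference; values were also computed for the measured hepatocyte markers miR-192-5p, miR-194-5p, miR-21-5p and miR-148a-3p; let-7c-5p and miR-122-5p were named after their values were seen. The members and lists were chosen with earlier results of these data known. Of 17 alternatives planned, 1 was not run. The steps were tested on simulated data. Python 3.11.15, numpy 2.4.6, pandas 2.3.3, matplotlib 3.10.9, R 4.3.3 and limma 3.58.1 were used. Sequences and host genes came from RefSeq (GRCh38.p14).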

Additional observations from a re-analysis of the deposited data

How the results depend on the processing

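No paired analysis was possible because there is a single array in each group. Slide and scan, shared by the arrays, could not serve as a block. For miR-483-5p, 14 of 15 alternatives that give a difference moved it by less than its spot SD, between -0.52 and -0.18, and the 75th percentile over all probes moved it by more, to 0.073. The counts of members measured on both arrays (1) and past 1.5-fold (0) kept their values under each alternative run. The 2-fold run is no check, since a value within 1.5-fold is also within 2-fold. The spot filters could not move the measured count either. All spots of miR-483-5p were well above background, and no spot of the other members was. Under the 75th percentile over all probes the let-7 median was 0.14. The median of the listed imprinted-locus miRNAs that were measured, -0.09 as reported, was 0.39 with that scaling. It was 0.18 with the unscaled total signal per miRNA and 0.12 with that signal scaled. It was also above 0 without scaling (0.14), with quantile normalization (0.10) and with the median of measured probes (0.013). The 18 other miRNAs followed (let-7, imprinted loci, miR-4466, the 3 nearest and 4 hepatocyte markers) gave 225 values within their spot SD of the reported one and 44 outside it. There were 0 sign changes among called values, but only let-7b-5p (-0.82) and miR-21-5p (0.76) were past 1.5-fold as reported. Uncalled values did change sign, as let-7a-5p did from -0.38 to 0.11 with that percentile. let-7b-5p lost 1.5-fold with normexp (-0.44) and that percentile (-0.33). miR-21-5p lost it with the total signal per miRNA (0.48 scaled, 0.54 unscaled), the deposited values (0.21) and the brightest probe alone (0.27). The share of measured miRNAs past 1.5-fold, 3.93% as reported, was between 1.31% with normexp (offset of 50) and 16.2% with that percentile. Background limits what can be said of miR-483-3p and of both arms of miR-675, for which no difference is given.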
